A study of Homo sapiens with 12 samples.

Results

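The expression of 52 genes of vesicle traffic was compared between HA22T and PLC5, established human hepatocellular carcinoma (HCC) cell lines, and between cells with and without knockdown of GALNT1. The set holds 33 Rab GTPases, 3 Arf GTPases, 3 EHD proteins and 13 regulators, scaffolds and endosomal proteins, and was given as a list of gene names. Of the 20503 genes named on the array, these 52 were each measured, by 65 probes that were found through their RefSeq transcripts. HA22T and PLC5 cells received 10 nM of a non-targeting siRNA (siControl) or of an siRNA pool against GALNT1 (siGALNT1), an enzyme that starts O-glycan chains on proteins, and total RNA was taken after 48 h. Every group, the controls included, was transfected with Lipofectamine RNAiMAX and grown in medium with serum. There were 3 one-color Agilent arrays for each of the 4 groups, 12 in all. The labels do not say whether same-group samples came from separate cultures, so p-values measure only the spread between these samples, which may be technical.

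Rab GTPases are small membrane switches. In the GTP-bound state a Rab sits on the membrane of one compartment and recruits effectors that bud, move, tether or fuse vesicles, and in the GDP-bound state it is drawn back into the cytosol by a GDP dissociation inhibitor. Exchange factors such as the DENND proteins turn Rabs on, and TBC-domain proteins turn many of them off. Arf GTPases play a like part in coat formation, with SMAP proteins as their GTPase-activating proteins, and EHD proteins remodel endosomal and surface membranes. In liver cells these routes carry plasma proteins out and receptors in and back.

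A level is given here as the log2 of the background-subtracted spot signal relative to the 75th percentile of its own array, so 0 is the brightness of that percentile. Levels of different probes are not comparable with each other, and a difference is a difference of such levels for 1 probe. Where several probes stood for a gene, the brightest one with a value in each group was used. A gene was counted in a comparison if 3 or more of the 6 arrays compared had this probe well above background, and called if limma's Benjamini-Hochberg adjusted p over all counted probes was below 0.05. The scanner marked 36679 to 48873 of the 58717 spots of an array as well above background, and arrays of a group correlated at 0.968 to 0.988. Slide 1 carried the 6 HA22T arrays with replicate 1 of both PLC5 groups, and slide 2 the other 4 PLC5 arrays, so a difference between the lines is partly a difference between slides. The targeted gene followed the labels: the brighter GALNT1 probe differed by -5.10 ± 0.61 (SE) in HA22T and -3.72 ± 0.61 in PLC5, with every siGALNT1 array below every control array of its line. Its limma adjusted p in HA22T was 0.0708, and the dimmer GALNT1 probe, at -4.75 ± 0.49, passed there (limma adjusted p = 0.0305). In PLC5 neither GALNT1 probe passed (limma adjusted p = 0.99998 each), with the dimmer one at -3.03 ± 0.49. Of 10 hepatocyte markers, 8 were higher on every PLC5 array than on any HA22T array, and their summed level was 2.70 to 3.18 in HA22T and 6.53 to 7.45 in PLC5 (log2). Of 6 mesenchymal markers, 5 were higher on every HA22T array and FN1 on every PLC5 array, with summed levels of 5.90 to 6.83 in HA22T and 4.38 to 5.13 in PLC5. Of 7 epithelial markers with a value, CLDN1 and ESRP1 were higher on every PLC5 array than on any HA22T array and 5 overlapped, KRT8 and KRT18 among them. The epithelial summed levels were 7.01 to 7.75 in HA22T and 6.28 to 7.52 in PLC5, and CDH1 was above background on at most 2 of 3 arrays of any group. Among markers of other cell types, the fibroblast gene COL3A1 was above background on 0 arrays, while the leukocyte gene PTPRC read 4.54 to 6.02 in HA22T and 4.25 to 5.51 in PLC5. Without overlap, LUM (fibroblast) and LAPTM5 (leukocyte) were higher in HA22T, and PECAM1 (endothelial) in PLC5. The part of these differences in the results below was not tested.

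The lines differed in about as many of the trafficking genes as of genes in general. With siControl, 48 of the 52 members were counted and 14 were called, 7 higher in HA22T and 7 lower, which is 29.2% of the counted members against 26.6% of all 17417 counted genes (14.2% higher and 12.4% lower). With siGALNT1, 14 of 48 were called again, 4 higher in HA22T and 10 lower, against 26.6% of 17201 genes (11.6% higher and 15% lower). These differences come from other arrays of the same lines, but the spread of each probe was estimated from all 12 arrays. The calls with siControl and with siGALNT1 are therefore not independent. In both conditions and in the same direction, 11 of 48 members were called, 22.9% against 21.2% of 16988 genes. Among these 11 is RAB3B, whose HA22T signals were not above background. The median member difference was -0.03 with siControl and -0.16 with siGALNT1, where the medians of all genes were 0.10 and 0.07. Scaling each array by its median moved the median of all genes with siControl from 0.10 to 0.21, and that of the members to 0.07. The number of siControl calls was 5 without PLC5 siControl replicate 1 and 9 without replicate 2 or replicate 3, and the number of siGALNT1 calls was 7 without PLC5 siGALNT1 replicate 2. It was 5 when only the 6 siGALNT1 arrays were fitted and 4 with the methods' t-test. RNA came from whole cultures, so fewer expressing cells and less RNA per cell cannot be told apart.

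**Figure D1:**
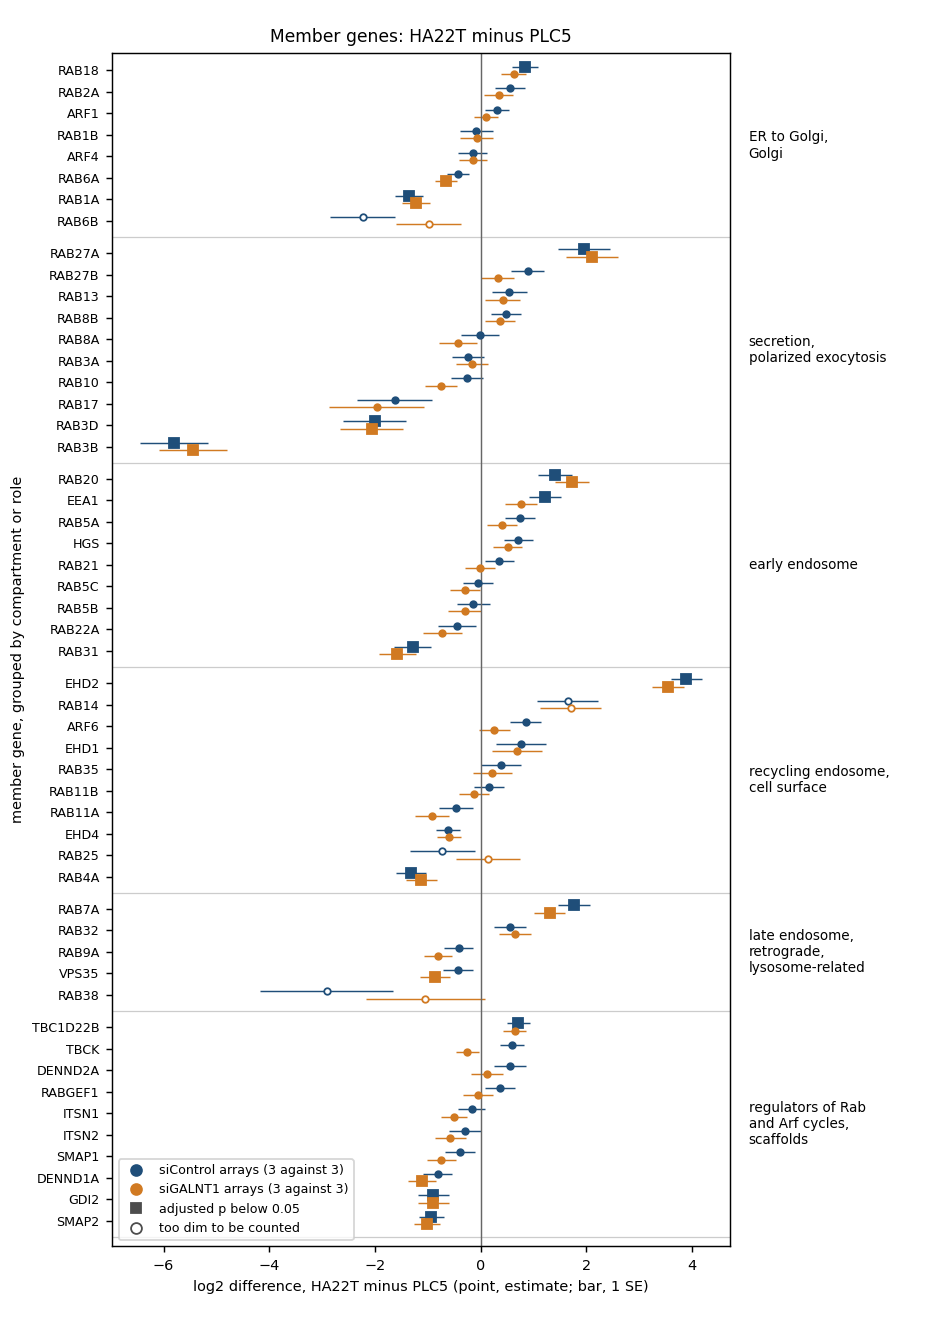
Log2 difference of each of the 52 members between HA22T and PLC5 (x axis, log2 units, HA22T minus PLC5) by compartment or role (y axis), with siControl arrays in blue and siGALNT1 arrays in orange. Points are estimates of the fit, bars 1 SE, squares an adjusted p below 0.05 and open circles genes too dim to be counted. EHD2 stands furthest to the right, at 3.90 and 3.55; RAB3B, furthest to the left, is drawn from HA22T signals that were not above background, so its place is no measured difference.

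The 4 members called in both conditions with the widest mean differences in each direction were EHD2 and RAB27A, higher in HA22T, and RAB3B and RAB3D, higher in PLC5. The 250 bases that precede their annotated starts are given in the 5′ to 3′ direction of the gene, as RefSeq has them on GRCh38.p14. Each stretch is the first one listed for its gene and was not matched to the transcript that the probe reads. EHD2 starts after chr19:47713172-47713421 (plus strand), RAB27A after chr15:55319124-55319373 (minus), RAB3B after chr1:51990701-51990950 (minus) and RAB3D after chr19:11339658-11339907 (minus). Capitals mark matches to GGGCGG (the GC box) or CAGGTG (the E-box that ZEB and SNAI factors read), on either strand.
EHD2: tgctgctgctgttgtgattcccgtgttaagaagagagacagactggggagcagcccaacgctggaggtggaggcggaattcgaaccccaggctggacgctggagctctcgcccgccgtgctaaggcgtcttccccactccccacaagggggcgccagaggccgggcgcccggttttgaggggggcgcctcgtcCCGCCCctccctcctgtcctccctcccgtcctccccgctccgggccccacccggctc
RAB27A: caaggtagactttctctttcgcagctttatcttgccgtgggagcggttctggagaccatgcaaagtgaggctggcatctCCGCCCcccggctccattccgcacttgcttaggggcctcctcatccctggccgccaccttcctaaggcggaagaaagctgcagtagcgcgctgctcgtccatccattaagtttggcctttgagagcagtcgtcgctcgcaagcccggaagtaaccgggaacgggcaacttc
RAB3B: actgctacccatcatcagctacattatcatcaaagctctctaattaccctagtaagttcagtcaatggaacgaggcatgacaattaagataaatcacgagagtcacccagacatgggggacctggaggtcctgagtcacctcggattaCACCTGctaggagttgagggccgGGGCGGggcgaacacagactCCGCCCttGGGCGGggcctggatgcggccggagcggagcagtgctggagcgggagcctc
RAB3D: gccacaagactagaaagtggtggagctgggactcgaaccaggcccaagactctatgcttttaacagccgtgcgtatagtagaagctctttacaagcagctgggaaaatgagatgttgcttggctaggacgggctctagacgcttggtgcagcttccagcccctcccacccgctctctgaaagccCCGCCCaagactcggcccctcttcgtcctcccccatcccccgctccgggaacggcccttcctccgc

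The stretches of EHD2, RAB27A and RAB3D hold 1 GC box each, and that of RAB3B holds 3 and 1 such E-box. TATAAA (the TATA box) was searched on both strands too and is in none of the 4 (0 matches each). None of the marked matches overlap each other. Over the 47 of 52 members with an entry, 41 promoters of this length (87.2%) held a GC box, against 42.3% of all 27305 promoters, 8 (17%) held the E-box, against 17.5%, and 0 held a TATA box, against 11.1%. GC boxes were found in 3 of 3 promoters of members called higher in HA22T in both conditions and in 6 of 6 of those called higher in PLC5, and the E-box in 0 of 3 and 2 of 6. The median number of CG steps was 23 in member promoters and 11 in all of them. All promoters include those of non-coding genes.

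Of the members called in both conditions, the widest fitted differences toward PLC5 were those of RAB3B and RAB3D, in secretion and polarized exocytosis. As a group these genes did not stand out. Of 10 counted, 1 was called higher in HA22T and 2 lower in each condition, where 26.6% of all genes were called. RAB3B and RAB3D belong to the Rab3 group, which sits on secretory vesicles before regulated release. RAB3B read -6.99, -7.88 and -6.62 in HA22T siControl and -8.29, -6.05 and -6.51 in HA22T siGALNT1, and none of these 6 arrays (0) was well above background. In PLC5 it read -2.01, -0.94 and -1.14 with siControl and -2.13, -0.34 and -2.04 with siGALNT1, all well above background and all higher than any HA22T array. HA22T therefore has only an upper bound: RAB3B was at least 18.2-fold higher in PLC5 with siControl and at least 11.1-fold higher with siGALNT1 (limma adjusted p = 6.07e-05 and 0.000105). This bound sets the mean of the brighter group against the lowest signal counted as well above background on each HA22T array, or the probe's own signal where that was higher. RAB3B was counted only through PLC5, so its p rests on HA22T signals below background. Its lack of overlap between the lines is therefore not separate support. The bounds hold for the processed signal used here: with normexp correction, which adds an offset, the differences were -3.03 and -2.78, smaller than these bounds.

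RAB3D read -4.61, -3.09 and -2.98 in HA22T siControl and -1.66, -1.43 and -1.56 in PLC5 siControl. With siGALNT1 it read -4.98, -3.22 and -2.69 in HA22T and -1.28, -1.13 and -2.30 in PLC5. The groups did not overlap, and replicate 1 was the lowest HA22T array each time. The difference was -2.01 ± 0.60 with siControl and -2.06 ± 0.60 with siGALNT1 (limma adjusted p = 0.0326 and 0.0287). With the slide as a block the values for RAB3D were -2.10 and -2.15 and neither passed, nor did either with the methods' t-test. The siControl call was lost too with quantile normalization and with median scaling. Without HA22T replicate 1 of the condition compared they were -1.48 and -1.39 and did not pass, and leaving out PLC5 replicate 1 or 2 of that condition, or PLC5 siControl replicate 3, also ended the call.

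RAB27A, which docks secretory lysosomes and exosome-bearing compartments at the plasma membrane, ran the other way. Its HA22T arrays read -2.31, -2.59 and -2.51 with siControl and -2.94, -2.47 and -2.96 with siGALNT1. PLC5 arrays read -4.93, -4.05 and -4.32 with siControl and -6.15, -3.76 and -4.80 with siGALNT1, below every HA22T array, and 2 of 3 were well above background in each group. RAB27A was thus 3.90-fold higher in HA22T with siControl (1.96 ± 0.49 on the log2 scale, limma adjusted p = 0.0142) and 4.33-fold with siGALNT1 (2.11 ± 0.49, limma adjusted p = 0.00957). On slide 1 alone, which holds 1 PLC5 array a condition, the siGALNT1 value was 3.36. Without PLC5 siControl replicate 1 the siControl value was 1.71 and did not pass. With normexp correction the values for RAB27A were 1.31 and 1.27 and with the slide as a block 2.83 and 2.99, and both calls were lost when all 6 arrays had to be above background. Its paralog RAB27B differed by 0.89 ± 0.32 and 0.32 ± 0.32 and passed in neither condition. The Rabs of the constitutive and polarized routes, RAB8A, RAB8B, RAB10, RAB13 and the neuronal RAB3A, lay between -0.74 and 0.55 in both conditions with no call. RAB8A, which acts in traffic to the cell surface and cilium, was nearest to 0 of all counted members with siControl, at -0.01 ± 0.36. RAB17, a Rab of polarized epithelial cells, read -1.21 and 1.05 in HA22T siControl and -0.64 on the only HA22T siGALNT1 array left, since its spots on the other 3 HA22T arrays were flagged and dropped from the fit. In PLC5 it read 0.67, 2.07 and 1.89 with siControl and 0.68, 1.63 and 1.66 with siGALNT1, and its differences of -1.63 ± 0.71 and -1.97 ± 0.90 did not pass. Its second, dimmer probe was well above background on 6 of 12 arrays. That probe also read higher on average in PLC5 in both conditions, and no fold is given for it.

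**Figure D2:**
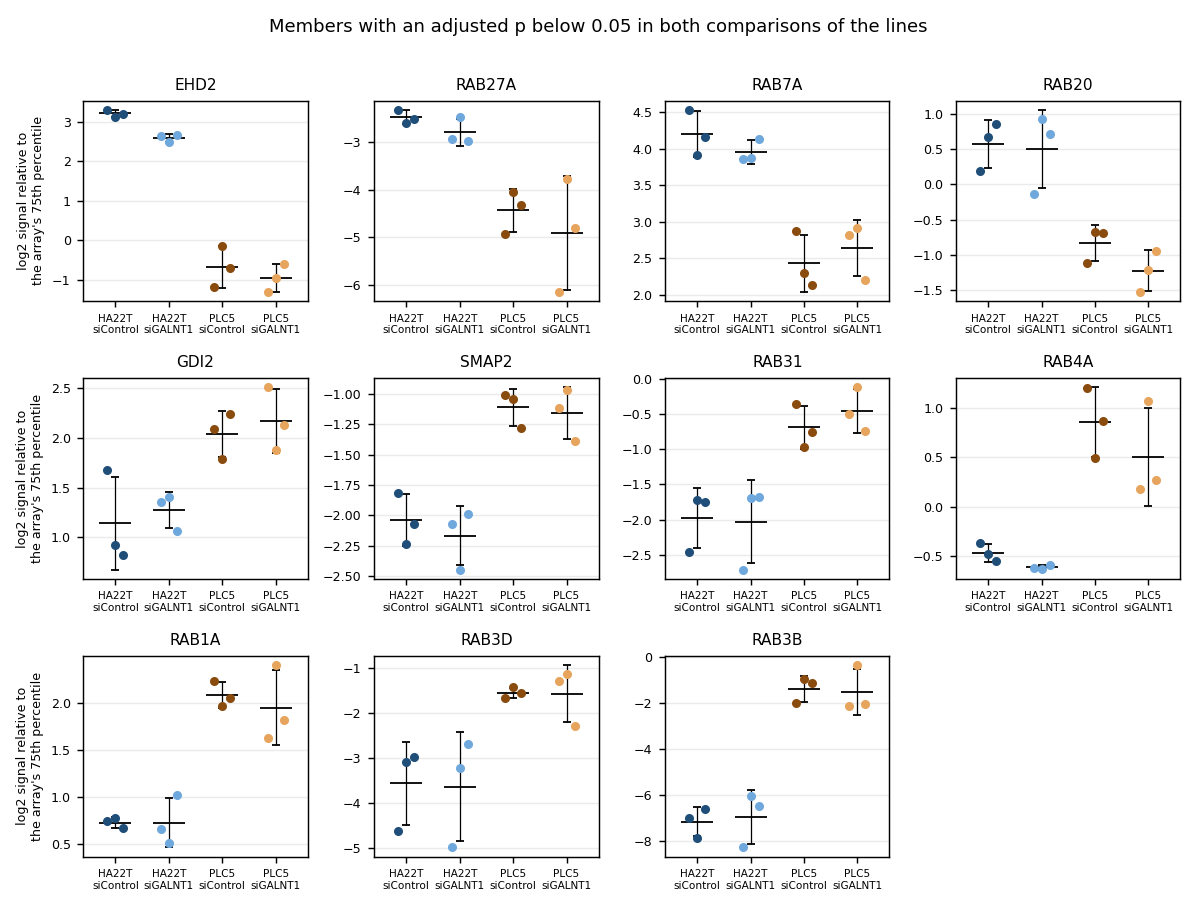
Level of the 11 members called in both conditions (y axis, log2 signal relative to the array's 75th percentile) on each array of the 4 groups (x axis); long horizontal lines are means and vertical bars 1 SD of 3 arrays. In every panel the 6 HA22T arrays and the 6 PLC5 arrays stand apart without overlap. RAB3B was counted only through PLC5, so its gap is not separate support.

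At the cell surface and recycling endosome, EHD2 was the clearest member. It is an ATPase that stabilizes caveolae at the neck. EHD2 read 3.31, 3.13 and 3.21 in HA22T siControl and 2.63, 2.48 and 2.66 in HA22T siGALNT1. In PLC5 it read -1.19, -0.14 and -0.71 with siControl and -1.31, -0.97 and -0.61 with siGALNT1. No PLC5 array came near an HA22T array: the level was 14.9-fold higher in HA22T with siControl and 11.7-fold with siGALNT1 (3.90 ± 0.29 and 3.55 ± 0.29 on the log2 scale, limma adjusted p = 3.51e-06 and 7.91e-06). The other EHD proteins, which tubulate recycling endosomes, did not share this: EHD1 differed by 0.76 ± 0.47 and 0.69 ± 0.47, and EHD4 by -0.62 ± 0.22 and -0.60 ± 0.22, neither with a call.

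RAB4A, the Rab of fast recycling from early endosomes, was lower in HA22T. It read -0.37, -0.48 and -0.55 in HA22T siControl against 1.20, 0.50 and 0.87 in PLC5 siControl, and -0.62, -0.64 and -0.59 against 0.18, 1.07 and 0.26 with siGALNT1. The groups did not overlap in either condition, with differences of -1.32 ± 0.29 and -1.12 ± 0.29 (limma adjusted p = 0.00616 and 0.0156). Without PLC5 siGALNT1 replicate 2 the latter was -0.84 and did not pass. The Rabs of slow recycling, RAB11A (-0.47 ± 0.32 and -0.92 ± 0.32) and RAB11B (0.16 ± 0.28 and -0.12 ± 0.28), had no call, nor had RAB35 or ARF6. RAB14 was well above background on 2 siControl and 1 siGALNT1 arrays of HA22T and on 0 of PLC5, too few to be counted in the comparison of the lines. RAB25, an epithelial relative of RAB11A, was well above background on 0 of 12 arrays.

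Among early endosomal genes the calls split. RAB31, which acts between the trans-Golgi network and endosomes, read -2.46, -1.72 and -1.74 in HA22T siControl against -0.36, -0.96 and -0.75 in PLC5 siControl. With siGALNT1 its levels were -2.71, -1.70 and -1.68 against -0.50, -0.12 and -0.74. Every PLC5 array was above every HA22T array, by -1.28 ± 0.35 and -1.58 ± 0.35 as HA22T minus PLC5 (limma adjusted p = 0.0214 and 0.00726). The siControl call was lost without HA22T siControl replicate 1 (-1.04), PLC5 siControl replicate 1 (-1.12) or PLC5 siControl replicate 3 (-1.31). RAB20, a Rab of endosomes and phagosomes, was opposite, at 0.20, 0.68 and 0.86 in HA22T siControl and -1.12, -0.67 and -0.70 in PLC5 siControl. It read -0.13, 0.93 and 0.71 against -1.53, -1.21 and -0.94 with siGALNT1, again without overlap. RAB20 was 2.65-fold and 3.32-fold higher in HA22T (1.41 ± 0.33 and 1.73 ± 0.33 on the log2 scale, limma adjusted p = 0.00907 and 0.00267).

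EEA1, a tether of early endosomes that RAB5 recruits, was also higher in HA22T on every array. Its levels were -1.12, -1.08 and -1.42 in HA22T siControl, -1.51, -1.89 and -1.68 in HA22T siGALNT1, -2.71, -2.18 and -2.37 in PLC5 siControl and -3.12, -2.17 and -2.08 in PLC5 siGALNT1. The difference passed with siControl (1.21 ± 0.31, limma adjusted p = 0.0144), but not without PLC5 siControl replicate 1, and did not pass with siGALNT1 (0.76 ± 0.31, limma adjusted p = 0.0977), except with the slide as a block (1.24), normexp correction (0.72) or quantile normalization (0.80). HGS, which sorts ubiquitinated receptors toward degradation, was higher on each HA22T array (2.71 to 3.44) than on any PLC5 array (2.01 to 2.59), and its differences of 0.71 ± 0.28 and 0.51 ± 0.28 did not pass, except the former with a trend in the prior or a replicate block across the lines. The RAB5 isoforms, the central Rabs of early endosomes, had no call: RAB5A differed by 0.75 ± 0.28 and 0.40 ± 0.28, RAB5B by -0.14 ± 0.32 and -0.30 ± 0.32, and RAB5C by -0.06 ± 0.28 and -0.30 ± 0.28. RAB5C was second nearest to 0 with siControl. With siGALNT1, RAB21, which binds integrins on their way through endosomes, was nearest at -0.01 ± 0.28, and RABGEF1, an exchange factor for RAB5, followed at -0.05 ± 0.29.

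In the late endosomal and lysosome-related group, RAB7A, which matures endosomes and directs them to the lysosome, was higher in HA22T. RAB7A read 4.53, 3.91 and 4.16 in HA22T siControl and 3.86, 3.87 and 4.14 in HA22T siGALNT1. The PLC5 arrays read 2.87, 2.29 and 2.13 with siControl and 2.82, 2.91 and 2.21 with siGALNT1, all lower. The differences were 1.77 ± 0.30 and 1.31 ± 0.30 (limma adjusted p = 0.00118 and 0.00809), and with the slide as a block 1.46, which passed, and 1.00, which did not. VPS35, the core of retromer, which returns cargo from endosomes to the Golgi, was called lower in HA22T only with siGALNT1 (-0.43 ± 0.29 and -0.87 ± 0.29, limma adjusted p = 0.341 and 0.0489). RAB9A and RAB32 had no call. LAMP1, the lysosomal membrane protein, is no member, and it differed by 0.26 ± 0.29 and -0.20 ± 0.29. RAB38, a Rab of lysosome-related organelles, was well above background on 0 HA22T arrays and on 2 of 3 arrays of each PLC5 group, too few for the comparison of the lines.

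On the route from the endoplasmic reticulum through the Golgi, RAB1A stood apart. It is the Rab that admits vesicles to the Golgi, with RAB1B as a near copy. RAB1A read 0.75, 0.77 and 0.67 in HA22T siControl against 2.24, 1.97 and 2.05 in PLC5 siControl, and 0.66, 0.51 and 1.02 against 1.63, 2.40 and 1.82 with siGALNT1. It was lower on every HA22T array, by -1.36 ± 0.26 and -1.22 ± 0.26 (limma adjusted p = 0.00284 and 0.00558), and its second probe gave -1.09 and -1.30. RAB1B differed by -0.08 ± 0.31 and -0.07 ± 0.31 on its brighter probe. RAB6A, which serves retrograde traffic through the Golgi, was called lower in HA22T only with siGALNT1 (-0.43 ± 0.21 and -0.65 ± 0.21, limma adjusted p = 0.177 and 0.0427). RAB18, a Rab of lipid droplets and the endoplasmic reticulum, was called higher only with siControl (0.84 ± 0.24 and 0.63 ± 0.24, limma adjusted p = 0.0258 and 0.0813). Whether these differences changed with the siRNA was tested as an interaction, which gave an unadjusted p of 0.464 for RAB6A and 0.539 for RAB18. ARF1, ARF4 and RAB2A had no call, and RAB6B, at -7.96 to -6.27, was not above background on any HA22T array (0 of 6).

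Of 10 regulators and scaffolds, those called in both conditions were lower in HA22T. GDI2, which extracts GDP-bound Rabs from membranes, read 1.68, 0.92 and 0.83 in HA22T siControl against 2.09, 1.79 and 2.24 in PLC5 siControl. With siGALNT1 it read 1.35, 1.41 and 1.07 against 2.51, 1.87 and 2.13, and the lines did not overlap. Its differences of -0.90 ± 0.29 and -0.89 ± 0.29 lay at the threshold (limma adjusted p = 0.0487 and 0.0480), and in both comparisons the call was lost on leaving out any of 11 of the 12 arrays. The GDI2 call was also lost under 9 of 14 processing alternatives with siControl and 8 of 14 with siGALNT1, so it does not hold up. SMAP2, a GTPase-activating protein for Arfs at the trans-Golgi network, read -1.81, -2.24 and -2.08 in HA22T siControl and -1.01, -1.04 and -1.28 in PLC5 siControl. With siGALNT1 it read -2.07, -2.45 and -1.99 against -1.12, -0.97 and -1.39, below every PLC5 array. The differences were -0.93 ± 0.24 and -1.01 ± 0.24 (limma adjusted p = 0.0163 and 0.0107), and the siControl call was lost without HA22T siControl replicate 2 or 3 or PLC5 siControl replicate 1 or 2 (-0.92 to -0.83). DENND1A, an exchange factor for RAB35, passed only with siGALNT1 (-0.82 ± 0.27 and -1.11 ± 0.27, limma adjusted p = 0.0511 and 0.0122), while its second probe gave -2.38 and -2.61. TBC1D22B, a protein with a TBC domain, was called higher in HA22T only with siControl (0.71 ± 0.22 and 0.64 ± 0.22, limma adjusted p = 0.0390 and 0.0577). ITSN1 and ITSN2, scaffolds of clathrin-coated pits, had no call.

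Over all 12 arrays, 17 of the 51 members counted in either line (33.3%) did not overlap between the 6 HA22T and the 6 PLC5 arrays, against 30.6% of 17893 genes. HA22T was above for 7 (background 15.1%) and PLC5 for 10 (background 15.5%). The latter include RAB3B, which was counted only through PLC5. Of the 11 members called in both conditions, the siGALNT1 call was lost by each except EHD2 and RAB3B with the methods' t-test, and by RAB1A, RAB3D, RAB27A, RAB4A, GDI2 and SMAP2 when only the 6 siGALNT1 arrays were fitted. Calls with the slide as a block numbered 13 with siControl and 12 with siGALNT1.

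Knockdown of GALNT1 gave no call among the members. In HA22T, 48 were counted and 0 were called, as were 0 of all 16967 genes, each read from 1 probe (background 0%), while 3 members and 448 genes (2.64%) had an unadjusted p below 0.05 in limma. In PLC5, 50 were counted and 0 called, as were 0 of 17316 genes (background 0%), with 1 member and 138 genes (0.797%) at an unadjusted p below 0.05. The methods' t-test also called 0 members in each line. In PLC5 the main fit did not call the siRNA target itself, so 0 calls there do not show that members were unchanged. The study's own criterion, a fold of at least 1.5 with an unadjusted p below 0.05, was met by 3 members in HA22T, all lower with siGALNT1, and by 1 in PLC5, also lower. In HA22T it was met by 2.52% of all genes, 1.05% lower and 1.47% higher, and in PLC5 by 0.762%, 0.497% lower and 0.266% higher. These 4 values are given by array below, and none of them passed adjustment (limma adjusted p = 1.00 each).

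**Figure D3:**
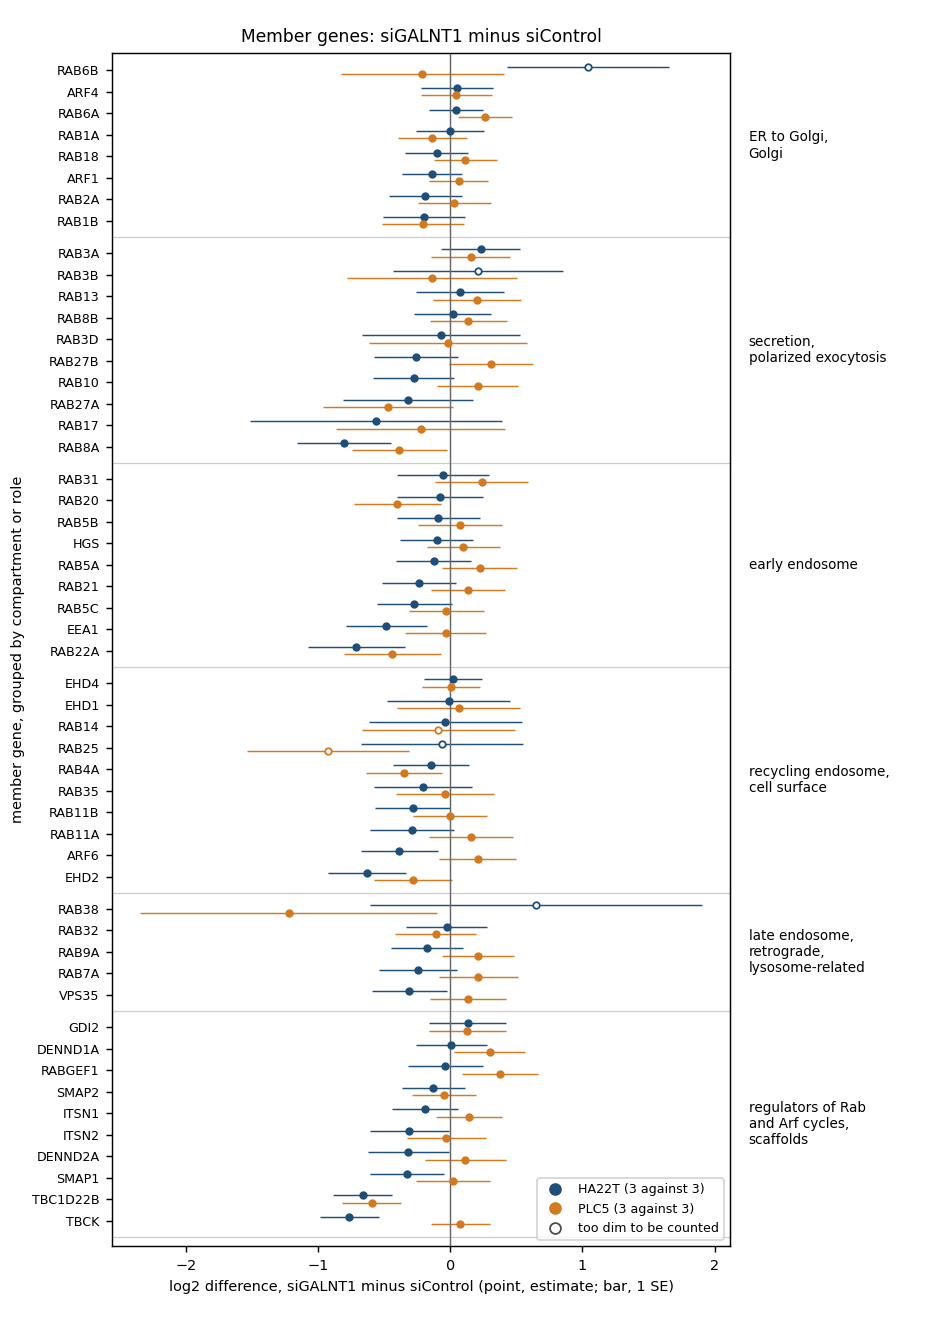
Log2 difference of each of the 52 members between siGALNT1 and siControl (x axis, log2 units, siGALNT1 minus siControl) in HA22T (blue) and PLC5 (orange) by compartment or role (y axis). Points are estimates of the fit, bars 1 SE and open circles genes too dim to be counted; counted members lie between -0.80 and 0.23 in HA22T and between -1.22 (RAB38, 0.27 without PLC5 siControl replicate 1) and 0.38 in PLC5, and none passed adjustment.

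TBCK, a kinase-like protein with a TBC domain, read -2.89, -2.67 and -2.73 in HA22T siControl and -3.35, -3.60 and -3.64 in HA22T siGALNT1. The difference was -0.76 ± 0.22 (unadjusted p = 0.00552), with all 3 siGALNT1 arrays below all 3 controls, an exact permutation p of 0.1, the smallest that 3 against 3 arrays allow. In PLC5 it read -3.41, -3.33 and -3.34 with siControl and -3.05, -3.24 and -3.55 with siGALNT1, where the groups overlapped and differed by 0.08 ± 0.22. By limma's unadjusted test, TBCK alone among the 51 members tested had an interaction p below 0.05 (-0.84 ± 0.32, unadjusted p = 0.0217, limma adjusted p = 0.988), where 1.88% of all genes did. No interaction was called, 0 among 51 members and 0 among 17893 genes.

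TBC1D22B met the criterion in both lines. It read -0.68, -0.53 and -0.53 in HA22T siControl and -1.38, -1.23 and -1.12 in HA22T siGALNT1, and -1.22, -1.54 and -1.12 in PLC5 siControl and -1.70, -1.96 and -2.0 in PLC5 siGALNT1. In each line every siGALNT1 array was below every control array. The differences were -0.66 ± 0.22 in HA22T (unadjusted p = 0.0120) and -0.59 ± 0.22 in PLC5 (unadjusted p = 0.0212), and between the lines they differed by -0.07 ± 0.31. The PLC5 value fell short of the criterion without PLC5 siControl replicate 1 or 3 or PLC5 siGALNT1 replicate 2 or 3 (-0.56 to -0.50), with normexp background correction, with median scaling, in the deposited table and when PLC5 was fitted alone. The study had listed TBCK and TBC1D22B as lower in both lines on these same arrays, so their lower values are not independent evidence of that direction. TBCK in PLC5, at 0.08, was not lower here.

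RAB8A read 2.29, 1.28 and 1.33 in HA22T siControl and 1.13, 0.63 and 0.73 in HA22T siGALNT1, with replicate 1 highest in both groups and no overlap. The difference was -0.80 ± 0.36 (unadjusted p = 0.0451), and -0.47 without HA22T siControl replicate 1. In PLC5 its levels overlapped, from 1.30 to 1.95 with siControl and from 0.84 to 1.81 with siGALNT1, and the difference was -0.38 ± 0.36.

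**Figure D4:**
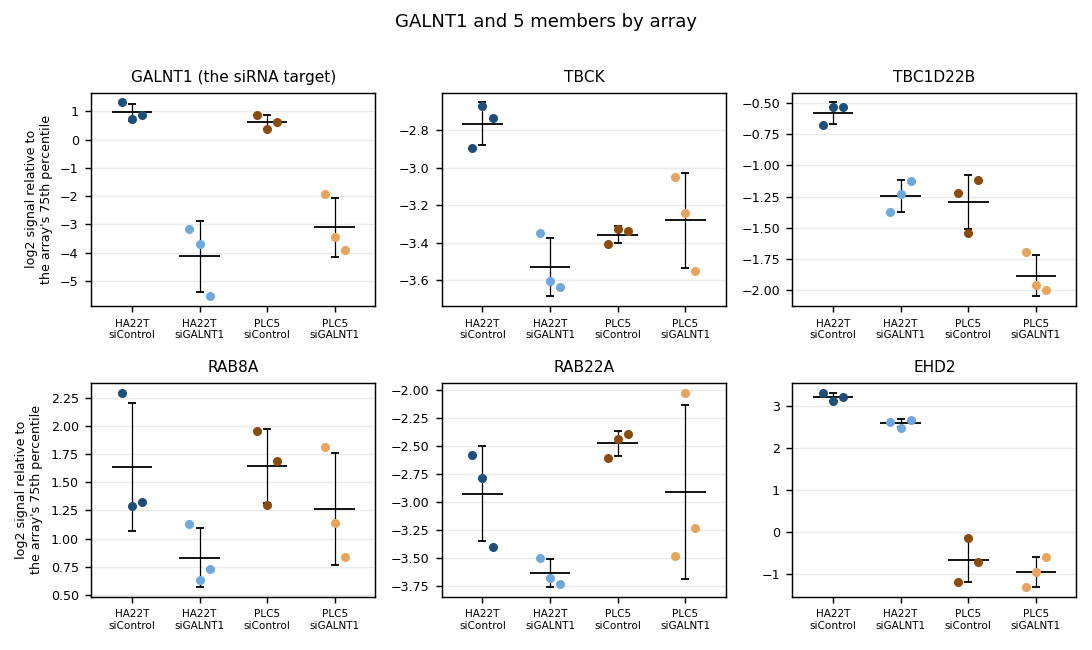
Level of GALNT1 and of TBCK, TBC1D22B, RAB8A, RAB22A and EHD2 (y axis, log2 signal relative to the array's 75th percentile) on each array of the 4 groups (x axis); long horizontal lines are means and vertical bars 1 SD of 3 arrays. TBC1D22B lies lower with siGALNT1 in both lines, and the other 4 members are apart only in HA22T.

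In HA22T, 9 of the 48 counted members (18.8%) had every siGALNT1 array below every control array and 0 had them all above, where 6.14% of all genes were below and 5.78% above. Besides TBCK, TBC1D22B and RAB8A these were RAB22A, EEA1, RAB4A, RAB11A, ARF6 and EHD2, which serve early and recycling endosomes or the cell surface, named after their values were seen. RAB22A read -2.58, -2.79 and -3.40 with siControl and -3.50, -3.68 and -3.73 with siGALNT1 (-0.71 ± 0.37, unadjusted p = 0.0781). EHD2, whose levels are given above, differed by -0.63 ± 0.29 and EEA1 by -0.49 ± 0.31. RAB4A (-0.15 ± 0.29), RAB11A (-0.29 ± 0.32) and ARF6 (-0.38 ± 0.29) differed by little more than their standard errors or less. The study had listed 4 of these 9 genes as lower in HA22T on these arrays, namely RAB22A, EHD2, TBCK and TBC1D22B. In all, 8 of 48 counted members had a difference above 0, and 36.5% of all genes had one. The median member difference was -0.18, that of the 40 counted members which the study did not list was -0.13, and that of all genes was -0.10. Under median scaling the members' median was -0.24 and that of all genes -0.16.

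In PLC5, RAB6A and RABGEF1 had every siGALNT1 array above every control array and TBC1D22B every one below, 3 of 50 members (6.00%) against 4.68% of all genes (2.39% above and 2.29% below). RAB6A read 1.09, 0.85 and 1.05 with siControl and 1.25, 1.28 and 1.26 with siGALNT1 (0.26 ± 0.21, unadjusted p = 0.226). RABGEF1 read 0.01, -0.48 and -0.10 against 0.29, 0.07 and 0.20 (0.38 ± 0.29, unadjusted p = 0.214). The median member difference was 0.06 and that of all genes 0.04, and 29 of 50 members were above 0, against 57.5% of all genes.

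The study listed 9 of the members from these arrays, 7 for HA22T and 4 for PLC5. Of the others among them, GDI2, listed as higher in HA22T, differed there by 0.13 ± 0.29, and by -0.025 without HA22T siControl replicate 3. ITSN1, listed as lower in HA22T, differed by -0.19 ± 0.25 on its brightest probe and by -0.70 and 0.56 on its other probes. RAB6B, listed as higher in HA22T, had its 3 siGALNT1 arrays (-6.46, -6.27 and -6.63) above its 3 controls (-7.96, -7.37 and -7.15), but none of the 6 was well above background, so no fold is given. For PLC5, SMAP1, a GTPase-activating protein for ARF6 listed as higher, differed by 0.02 ± 0.28, and DENND2A, an exchange factor for RAB9 listed as lower, by 0.11 ± 0.31. On these arrays SMAP1 and DENND2A overlapped between the groups in both lines. The study also measured both by RT-PCR in independent knockdowns, and reported SMAP1 as higher and DENND2A as lower in PLC5. Its list of RT-PCR primers also holds GDI2, ITSN1, TBCK and RAB22A, for which its text states no RT-PCR result. The array values here are therefore not all of the study's evidence on these genes. In PLC5, neither of the early endosomal markers differed beyond its error, where EEA1 differed by -0.03 ± 0.31 and HGS by 0.10 ± 0.28.

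A list of 116 further trafficking genes (other Rabs, effectors, exchange factors and GTPase-activating proteins, prenylation factors, Arf regulators, clathrin adaptors, retromer, the endosomal sorting complexes, exocyst and lysosomal tethers) was counted in the same fits. Between the lines, 12 were called higher in HA22T and 11 lower of 110 with siControl (20.9%), and 11 higher and 19 lower of 108 with siGALNT1 (27.8%), against 26.6% of all genes in each. The 3 called genes with the largest fitted differences were near background in HA22T, so that bounds are given. They were RAB37, another Rab of secretory granules (at least 35.1-fold and 22-fold higher in PLC5), MLPH, which links RAB27A to myosin Va (at least 16.1-fold higher in PLC5 with siControl, and with siGALNT1, where 1 of 3 HA22T arrays measured it, -4.35 ± 0.36), and RAB39B (at least 5.43-fold and 4.92-fold higher in PLC5). These bounds do not rank RAB39B above genes measured in both lines, of which CHM, a Rab escort protein in prenylation, was 5.27-fold and 6.66-fold higher in PLC5, RAB15 5.25-fold and 6.65-fold higher in PLC5, and CYTH3, an exchange factor for Arfs, 5.32-fold and 3.85-fold higher in HA22T. CHM, RAB15 and CYTH3 were named after their values were seen. The levels of MLPH were -7.88 to -5.88 in HA22T and -2.01 to -1.36 in PLC5. RAB27A was thus higher in HA22T and MLPH in PLC5. MLPH was counted through its PLC5 arrays, so its lack of overlap between the lines is not separate support. With siGALNT1 none (0) of these genes was called in either line, and 3 of 107 in HA22T (2.80%) and 1 of 110 in PLC5 (0.909%) had an unadjusted p below 0.05, against 2.64% and 0.797% of all genes. RAB28, a Rab of cilia, was the only one of them in both lines. It read 1.81 and 2.19 with siControl and 3.13 and 3.41 with siGALNT1 in HA22T, where replicate 2 was flagged in both groups and dropped from the fit. In PLC5 it read 3.06, 3.07 and 2.59 with siControl and 2.32 and 1.81 with siGALNT1, where replicate 3 was dropped. Without overlap, siGALNT1 arrays were thus above controls in HA22T and below them in PLC5, with limma differences of 1.27 ± 0.35 and -0.84 ± 0.32 and an interaction of 2.11 ± 0.48 that was not called (limma adjusted p = 0.988).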

How the data were processed

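RNA of 12 samples was labeled and hybridized to one-color Agilent arrays, and the authors scanned them with Feature Extraction 10.5.1.1, per the labels. For each spot the authors deposited intensity values, namely the background-subtracted processed signal and median signals, along with flags. They also deposited a log2 table, whose columns have a 75th percentile near 0 and correlate with the scanner values, used here as an alternative. Control spots and non-uniform spots were left out, and log2 signals were set relative to each array's 75th percentile. Spots of a probe were averaged. Of 50599 probes, 28174 were named by RefSeq accession (GRCh38.p14 table). The array's own build is older, so coordinates come only from the RefSeq promoters.

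The 4 groups were fitted together without covariates in limma 3.58.1 (R 4.3.3, lmFit and eBayes), with Benjamini-Hochberg adjustment over counted probes, and background shares use 1 probe a gene. Errors after ± are standard errors of the fit. Exact tests were two-sided. The members and lists were chosen with earlier results of these data known. Genes were named where called in both comparisons of the lines, past the study's criterion, listed by the study, nearest to 0 or too dim, besides EEA1, HGS, LAMP1 and GALNT1, and up to 3 others of the pathway; others were added after their values were seen. On simulated arrays (50 probes changed for each size, of 32409, between the lines with siControl) the fit recovered 20% of differences of 1, 72% of 2, 98% of 3 and 100% of 5 on the log2 scale. In HA22T (31496 probes) it recovered 16%, 72%, 92% and 100%. With these planted changes 144 probes were called in simulated HA22T, and more calls ease the adjusted threshold. In the real HA22T comparison 0 genes, each read from 1 probe, were called. The brighter GALNT1 probe, at -5.10, did not pass there (limma adjusted p = 0.0708). These shares may therefore overstate recovery in the siRNA comparisons. Between the lines 152 probes were called in the simulation, while 4628 of 17417 genes were called in the real siControl comparison. The adjusted threshold thus differs there too, and the simulated arrays held no slide effect. The shares for the lines do not carry over to the real comparison.

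Same-numbered HA22T siControl and siGALNT1 arrays deviated together (r = 0.526, 0.264 and 0.338), so the numbers were read as pairs in that line. The pairs entered only the replicate block named below, and the main fit and the exact tests did not use them. This pairing rests on the values, since the labels give only numbers.

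Alternatives were normexp correction (offset 50, on median spot signals), quantile normalization, median scaling, the deposited table, other filters on dim probes, non-uniform spots kept, slide or replicate number as a block, a prior from counted probes, a trend, the compared arrays alone, the methods' t-test (Student's), the mean over probes and leaving out each array. A replicate block across the lines and slide 1 alone were added after seeing the data.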

Additional observations from a re-analysis of the deposited data

How the results depend on the processing

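With siGALNT1, 0 members and 0 of the other pathway genes were called in either line, and 0 for the interaction, under each alternative run and with each array left out. Members called between the lines with siControl numbered 11 to 20 over the alternatives and 5 to 14 with single arrays left out. With siGALNT1 they numbered 4 to 19 over the alternatives, and the other pathway genes 17 to 32 (siControl) and 11 to 36 (siGALNT1). The siGALNT1 counts of members and other pathway genes were 5 and 16 from only the 6 arrays compared, and 4 and 11 with the methods' t-test. With single arrays left out, 7 to 14 members were called with siGALNT1, and 14 to 24 (siControl) and 17 to 29 (siGALNT1) of the other pathway genes, lowest without PLC5 siControl replicate 3 (15 without replicate 2) and PLC5 siGALNT1 replicate 2. Members past the study's criterion in HA22T were 5 with quantile normalization and 2 to 4 with single arrays left out. In PLC5 they were 0 with normexp correction, median scaling, the deposited table and only the 6 arrays compared, and 0 to 3 with single arrays left out (0 without siControl replicate 1 or 3 or siGALNT1 replicate 3, and 3 without siGALNT1 replicate 2). GALNT1 passed in HA22T with normexp correction (-4.26), a prior from counted probes (-5.10), a trend (-5.10) and the mean over probes (-4.93), and in PLC5 with normexp correction (-3.38). Leaving out arrays moved it between -5.59 and -4.39 in HA22T and between -4.31 and -3.31 in PLC5. With normexp correction RAB6B in PLC5 turned to 0.082, and RAB3B moved to -3.03 and -2.78 between the lines. Single arrays turned the sign of some small siGALNT1 differences, whose ranges were -0.249 to 0.117 for HGS and -0.0252 to 0.401 for GDI2 in HA22T. In PLC5 the ranges were -0.828 to 0.450 for RAB6B, -0.0384 to 0.277 for GDI2, -0.0397 to 0.212 for TBCK, -0.134 to 0.224 for SMAP1, -0.222 to 0.298 for EEA1 and -0.00197 to 0.288 for HGS, and leaving out siGALNT1 replicate 1 turned each of these 6. The cause was not tested.

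With the replicate block, 4 members met the study's criterion in HA22T and 1 in PLC5, and 0 were called, so the pairing changed no call of a member. In PLC5 same-numbered arrays did not all deviate together (r = 0.58, 5.76e-05 and 0.182), and siControl replicate 2 correlated best with siGALNT1 replicate 3 (0.448). Across the lines the numbers did not pair (r from -0.187 to 0.262), and the replicate block across the lines gave 18 member calls with siControl and 15 with siGALNT1. Precision is limited by 3 arrays a group and, for RAB3B, RAB6B, RAB14, RAB25 and RAB38, by signal near background. RAB3B was no longer counted, and so not called, without any 1 PLC5 array of the groups compared or when all 6 arrays had to be above background.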

Other observations

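RAB38 in PLC5 read -1.51 on siControl replicate 1 and -6.08 and -5.86 on the other siControl arrays, and -6.68, -4.94 and -5.49 with siGALNT1. Its difference between siGALNT1 and siControl in PLC5, -1.22 ± 1.12, was the widest of the counted members there, and was 0.27 without this array. Of the 11 members with more than 1 probe, RAB18 gave 0.84 on its brighter and 1.88 on its dimmer probe between the lines with siControl, and VPS35 gave -0.43 on its brightest and -0.92 and -0.68 on its other probes.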
